A study of Mus musculus with 7 samples.

Results

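Leukocytes that settle in fat carry miRNAs linked to their lineages, and 6 of these were followed in vesicles released by the visceral fat of nicotine-treated mice. Whether other cells of the tissue also released these miRNAs was not tested. They are mmu-miR-223-3p and mmu-miR-223-5p, mmu-miR-142a-3p and mmu-miR-142a-5p, mmu-miR-150-5p and mmu-miR-342-3p, written without the species prefix from here on and taken by name from the 820 miRNAs of the deposited table. All libraries came from epididymal white adipose tissue of male ApoE-/- mice, which lack apolipoprotein E and develop atherosclerosis. The labels give an age of 8 weeks without saying when it was taken, and tissue was collected after 12 weeks of feeding. The HFD group received a high-fat diet (4 libraries), and the HFD+Ni group the same diet with nicotine at 2 mg/kg/day (3 libraries). ApoE is missing in both groups, the vesicles were taken from whole tissue rather than from 1 cell type, and the labels do not say how many animals stand behind a library. The p-values therefore measure the spread between libraries, which may be technical. Fewer vesicles of leukocyte origin and less miRNA per vesicle cannot be told apart in such bulk samples.

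A miRNA precursor is cut into a hairpin with a 5p and a 3p arm, and one or both arms are loaded into Argonaute, where bases 2 to 8 (the seed) choose the mRNAs to be silenced. miR-223 is a miRNA of neutrophils, monocytes and macrophages and is also abundant in platelets. miR-142a (miR-142 in other species) is made throughout the blood cell lineage, miR-150 is highest in mature B and T lymphocytes, where it restrains the transcription factor Myb, and miR-342 is transcribed from within Evl, an actin regulator gene expressed in leukocytes. Obese visceral fat is known to take up macrophages and lymphocytes.

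RefSeq (GRCm38.p6) gave a mature sequence for 5 of the 6 and none for miR-150-5p. The 5 are shown because the values of these members below rest on reads assigned to them. Seeds are in capitals, and sequences run 5′ to 3′ on the plus strand of the genome.
miR-223-3p: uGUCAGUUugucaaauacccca
miR-223-5p: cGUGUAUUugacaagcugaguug
miR-142a-3p: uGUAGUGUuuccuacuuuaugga
miR-142a-5p: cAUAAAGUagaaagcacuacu
miR-342-3p: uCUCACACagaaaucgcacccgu
The 5 seeds differ from one another, and none was shared with another mature mouse miRNA of the same table (0 matches for each). The nearest other mature miRNA stood 9 edits away from miR-223-3p, miR-223-5p and miR-342-3p and 7 edits away from miR-142a-3p. For miR-142a-5p it was miR-3964 at 4 edits, and miR-3964 itself held 5 reads in HFD replicate 2 and 0 in the other libraries. On GRCm38, miR-223-3p lies at chrX:96242884-96242905 and miR-223-5p at chrX:96242842-96242864, in an exon of the non-coding gene F630028O10Rik. miR-142a-3p lies at chr11:87756903-87756925 and miR-142a-5p at chr11:87756867-87756887, in an intron of Mir142hg, and the miRNA gene Mir142b overlaps them on the other strand. Whether reads were counted by strand is not given in the sources used here. miR-342-3p lies at chr12:108658680-108658702 in an intron of Evl, and the Mir150 hairpin at chr7:45121757-45121821 overlaps no other annotated gene.

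The hairpins of Mir223 and Mir142 are shown because both of their arms are members, and the arms of Mir223 were read very unevenly in these vesicles while those of Mir142 were not. Capitals mark the 5p arm, which comes first, and the 3p arm.
Mir223: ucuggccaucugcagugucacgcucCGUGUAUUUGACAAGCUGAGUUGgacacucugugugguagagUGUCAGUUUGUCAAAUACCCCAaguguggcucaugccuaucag
Mir142: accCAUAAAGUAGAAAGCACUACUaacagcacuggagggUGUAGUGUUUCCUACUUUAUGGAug

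Libraries held between 53626 miRNA reads (HFD+Ni replicate 1) and 1055902 (HFD replicate 2), so 1 read was worth 18.6 rpm (reads per 1000000 miRNA reads) in the shallowest and 0.947 rpm in the deepest. Where a miRNA had no read, its level could still have been as high as 3 reads, equal to 55.9 rpm in the shallowest library and to 2.84 rpm in the deepest. HFD+Ni replicate 1 stood apart in its content as well. Its 6 epithelial miRNAs summed to 45146 rpm against 4813 to 13605 rpm in the other 6 libraries, and 9 of the 156 miRNAs that averaged 100 rpm or more had no read there, against 0 to 2 elsewhere. Fold changes of the members, and list medians whose sign turns on that library, are given with and without it. Of the miRNAs linked to fat cells, miR-103-3p, which acts on insulin sensitivity, stood at 9500 ± 2710 rpm in HFD (SD, n = 4), but no miRNA on that list is confined to fat.

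Together the 6 miRNAs were a small part of the cargo, 0.587% of miRNA reads at most and 0.235% at least. Their summed level was 5865, 4616, 5125 and 4973 rpm in HFD replicates 1 to 4 and 2350, 4679 and 4506 rpm in HFD+Ni replicates 1 to 3. The groups overlapped, since HFD+Ni replicate 2 lay just above HFD replicate 2, and the lowest library was HFD+Ni replicate 1. Mature miRNAs have nearly the same length, so levels were compared in rpm without a length correction. In order of mean level over the 7 libraries, miR-150-5p came first at 2207 rpm (rank 45 of 820). It was followed by miR-342-3p at 1262 rpm (rank 58), miR-223-3p at 611 rpm (rank 83), miR-142a-3p at 283 rpm (rank 111), miR-142a-5p at 222.8 rpm (rank 121) and miR-223-5p at 2.26 rpm (rank 485). miR-342-3p was above miR-223-3p in 7 of 7 libraries, by a mean log2 ratio of 1.04 ± 0.57 (SD, n = 7). miR-150-5p was above miR-342-3p in 5 of 7 libraries with a log2 ratio of 0.83 ± 0.74, a mean just above its SD. miR-142a-3p was above miR-142a-5p in 5 of 7 with a log2 ratio of -0.65 ± 3.22, so the miR-142a arms did not differ beyond their spread.

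**Figure D1:**
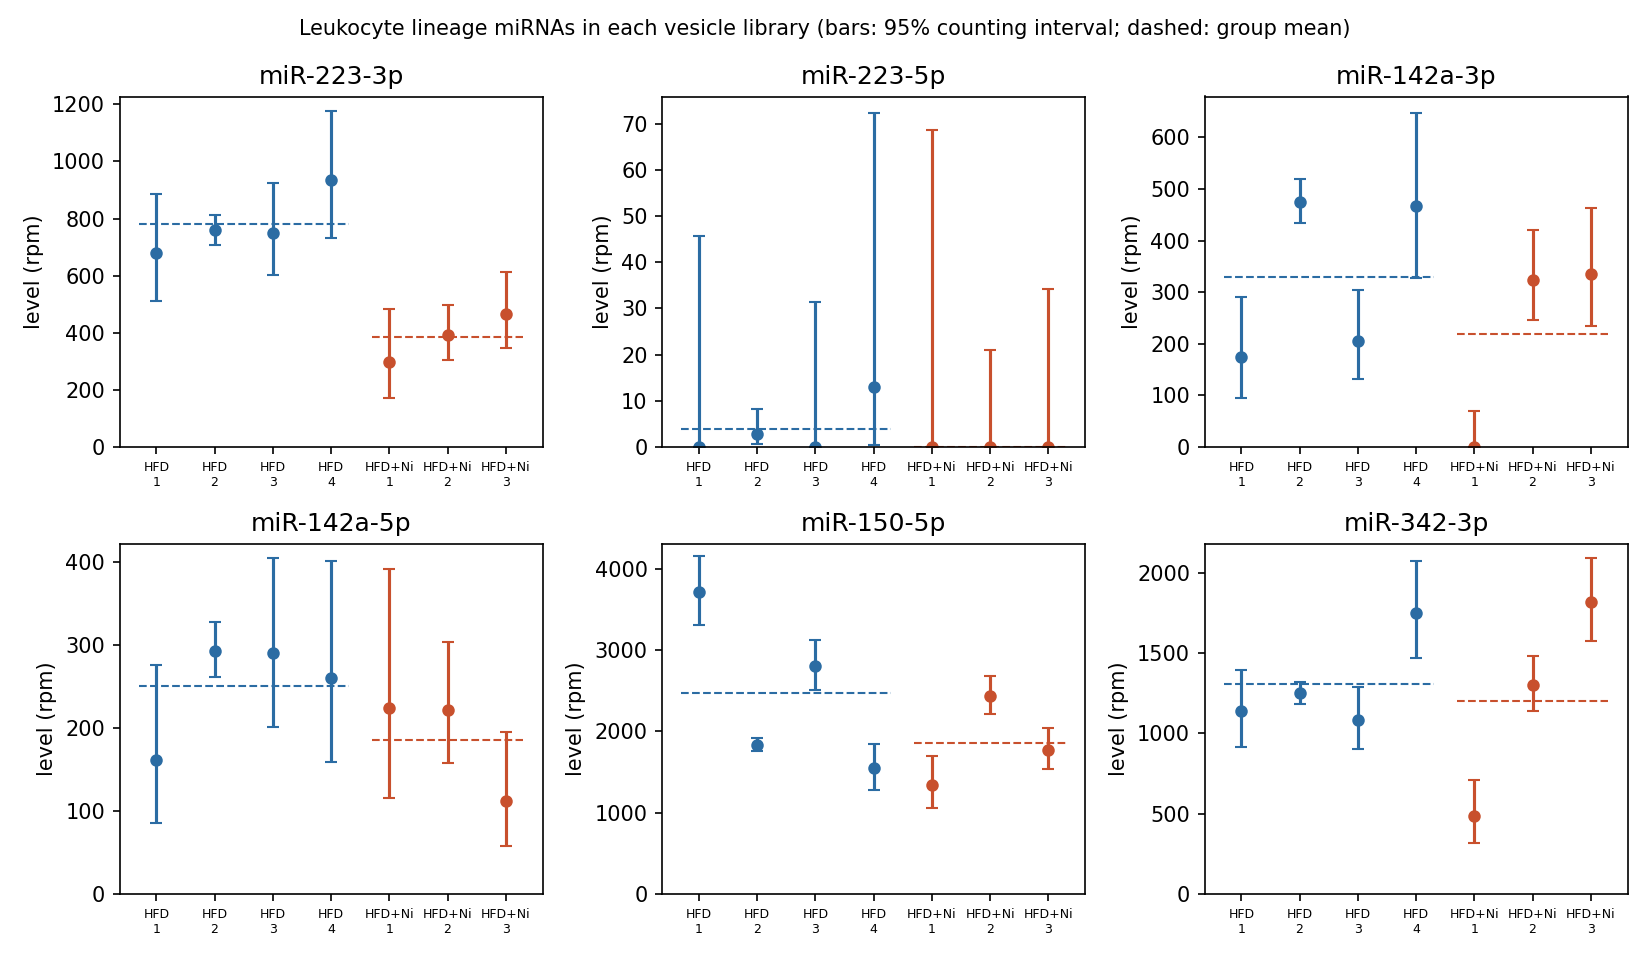
Level in rpm (linear axes from 0) of each of the 6 leukocyte lineage miRNAs in the 4 HFD (blue) and 3 HFD+Ni (red) libraries, with 95% Poisson counting intervals and group means as dashed lines. For miR-223-3p the HFD+Ni libraries lie between 298 and 465 rpm and the HFD libraries between 681 and 935 rpm, whereas the groups overlap for the other members.

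The comparison of HFD+Ni with HFD asked whether nicotine moved these miRNAs in fat vesicles. The myeloid miR-223-3p was the only member whose groups did not overlap. It was at 681, 760, 749 and 935 rpm in HFD replicates 1 to 4 and at 298, 392 and 465 rpm in HFD+Ni replicates 1 to 3. All HFD+Ni libraries lay below all HFD libraries, which was so for 9 of 387 tested miRNAs (2.33%), and for 20 (5.17%) the groups were separate in either direction. The values rest on 55, 802, 88 and 72 reads in HFD and on 16, 69 and 50 reads in HFD+Ni. Group means were 781 ± 108 rpm (SD, n = 4) and 385 ± 83.3 rpm (SD, n = 3), 2.03-fold lower in HFD+Ni. On the log2(rpm + 1) scale the fold change was -1.03 (SE 0.39, 95% interval -1.88 to -0.18), unadjusted p = 0.0211 and Benjamini-Hochberg adjusted p = 0.830 in limma. It therefore did not pass the corrected threshold of 0.05. The count tests on reads recovered from the rpm values gave log2 fold changes of -1.13 in edgeR (adjusted p = 0.616) and -0.99 in DESeq2 (adjusted p = 0.688). The authors' deposited table gives -0.999 with a p-value of 0.0583 and an FDR of 1, and it lists log2 fold changes of -0.52 for miR-142a-3p, -0.48 for miR-142a-5p, -0.40 for miR-150-5p and -0.08 for miR-342-3p, each at an FDR of 1.

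The spread of miR-223-3p within a group was small. Its coefficient of variation was 13.9% in HFD, where counting error alone gives 10.6%, and 21.6% in HFD+Ni, where counting error alone gives 16.5%. Over the 7 fits that each lacked a different library, its log2 fold change stayed between -1.18 and -0.86, the latter without HFD+Ni replicate 1, and unadjusted p in limma was under 0.05 in 6 of 7 fits, with 0.0517 without HFD replicate 3. When every library was thinned to the depth of the shallowest, the log2 fold change was -0.82 (unadjusted p = 0.1001 in limma).

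The other arm, miR-223-5p, is the rarely kept strand of the Mir223 hairpin shown above. It had 3 reads in HFD replicate 2 (2.84 rpm), 1 read in HFD replicate 4 (12.98 rpm) and 0 in the other 5 libraries. With a mean of 2.26 rpm it was below the filter of 5 rpm and was not tested, so 5 of the 6 members were tested. Across all libraries 99.7% of 1156 miR-223 reads were of the 3p arm (95% exact binomial interval 99.1 to 99.9%). HFD replicate 2 gave 805 of these reads, and the interval leaves out the spread between libraries. No fold is given for miR-223-5p, because its 4 reads in HFD stand against 0 reads in HFD+Ni, which allow up to 8.90 rpm over that group.

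miR-142a, the pan-leukocyte miRNA, kept both arms in comparable amounts, with 60.4% of 1108 reads on the 3p arm (95% exact binomial interval 57.4 to 63.3%). Of these reads 811 came from HFD replicate 2, so the pooled share mainly describes that library. The interval leaves out the spread between libraries. miR-142a-3p was at 173, 475, 204 and 467 rpm in HFD replicates 1 to 4 and at 0, 324 and 334 rpm in HFD+Ni replicates 1 to 3. Apart from the library at 0, the HFD+Ni values lay within the HFD range. HFD+Ni replicate 1 had 0 reads of this arm, where the mean of the other 6 libraries (330 rpm) corresponds to 17.7 reads at its depth. In the same library miR-142a-5p had 12 reads (224 rpm), the level of the other libraries. The 3p share of miR-142a reads was thus 0% there (0 of 12 reads, exact interval up to 26.5%) against 41.4 to 75.0% in the other 6 libraries. That library decided the fold change: it was -2.65 (SE 1.66, adjusted p = 0.830 in limma) with it and 0.14 (SE 0.54, adjusted p = 0.951) without it. With all 7 libraries the value also depended on how the 0 was treated, at -1.56 with a pseudocount of 10 rpm, -0.66 in edgeR, -0.56 in DESeq2 and -0.61 with library weights in limma. Without that library the HFD+Ni mean was 329 ± 7.37 rpm (SD, n = 2) against 330 ± 164 rpm in HFD (SD, n = 4).

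The 5p arm, miR-142a-5p, was at 161, 293, 289 and 260 rpm in HFD and at 224, 222 and 111 rpm in HFD+Ni. The groups overlapped, with the lowest value in HFD+Ni replicate 3 on 12 reads. Its log2 fold change was -0.46 (SE 0.56, 95% interval -1.69 to 0.76, adjusted p = 0.856 in limma), an interval that runs from 3.22-fold lower to higher levels under nicotine. Leaving out HFD+Ni replicate 1 gave -0.63, and leaving out HFD+Ni replicate 3 gave -0.13. The arm ratio (3p to 5p, log2) averaged 0.29 ± 0.61 for HFD (SD, n = 4) against -1.90 ± 5.15 for HFD+Ni (SD, n = 3), with p = 0.743 by an exact two-sided permutation test (0.857 after Benjamini-Hochberg adjustment over the 6 ratios tested). Without HFD+Ni replicate 1 that difference changed sign, from -2.18 to 0.77.

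The lymphocyte miRNAs varied widely inside the groups. miR-150-5p was at 3712, 1834, 2801 and 1545 rpm in HFD and at 1343, 2439 and 1775 rpm in HFD+Ni. HFD replicates 1 and 3 were the highest of all libraries, and HFD replicate 4 lay below 2 of the 3 HFD+Ni libraries. The coefficient of variation in HFD was 39.8%, against 6.12% from counting error. Its log2 fold change was -0.37 (SE 0.37, 95% interval -1.17 to 0.43, adjusted p = 0.830 in limma). Leaving out HFD+Ni replicate 1 gave -0.16, and leaving out HFD replicate 1 gave -0.15. The fits that lacked HFD replicate 4 or HFD+Ni replicate 2 gave -0.57 and -0.59. Its partner arm miR-150-3p had 4 reads in HFD replicate 1, 2 in HFD replicate 2 and 0 in the other 5 libraries.

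miR-342-3p was at 1138, 1252, 1081 and 1753 rpm in HFD and at 485, 1302 and 1821 rpm in HFD+Ni. Both the lowest and the highest library belonged to HFD+Ni, so the groups overlapped fully. The log2 fold change was -0.29 (SE 0.45, 95% interval -1.27 to 0.69, adjusted p = 0.893 in limma), and without HFD+Ni replicate 1 it was 0.26 (SE 0.32, adjusted p = 0.901). Leaving out HFD replicate 4 gave -0.14, and the fits that lacked HFD+Ni replicate 2 or 3 gave -0.45 and -0.69. The partner arm miR-342-5p had 3 reads in HFD replicate 2, 2 in HFD+Ni replicate 2 and 0 in the rest.

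**Figure D2:**
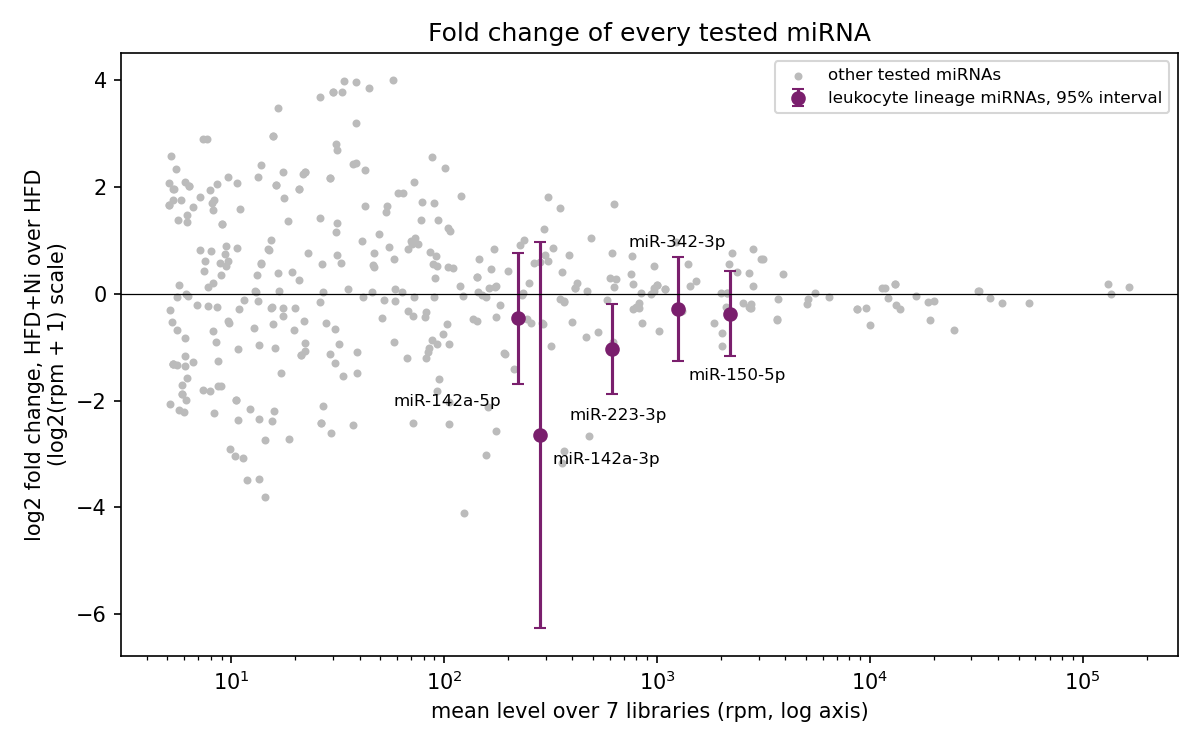
Log2 fold change of HFD+Ni over HFD on the log2(rpm + 1) scale for the 387 tested miRNAs, against their mean level over the 7 libraries (log axis), with the 5 tested leukocyte lineage miRNAs in purple and their 95% limma intervals. The interval of miR-223-3p lies between -1.88 and -0.18, before correction for multiple tests, and those of the other 4 members include 0.

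As a group, 5 of 5 tested members had a log2 fold change below 0, where 183 of the 387 tested miRNAs did (47.3%). The median was -0.46, against 0.04 over all tested miRNAs. limma called 0 of the 5 at adjusted p under 0.05, as it called 0 of 387 (0%), and edgeR and DESeq2 also called 0 of the 5. At unadjusted p under 0.05 limma took 1 of the 5, miR-223-3p, against 11 of 387 (2.84%), of which 5 lay lower (1.29%). The count of members below 0 depended on 1 library: without HFD+Ni replicate 1 it was 3 of 5, against 155 of 388 tested miRNAs. The median of the members was then -0.16, against a median of 0.25 over all tested miRNAs. None of the 6 is among the 15 changed miRNAs of the authors' deposited list. That list has no column for HFD replicate 2 and has 1 per-sample column matching no label. It may therefore rest on other libraries than those compared here.

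**Figure D3:**
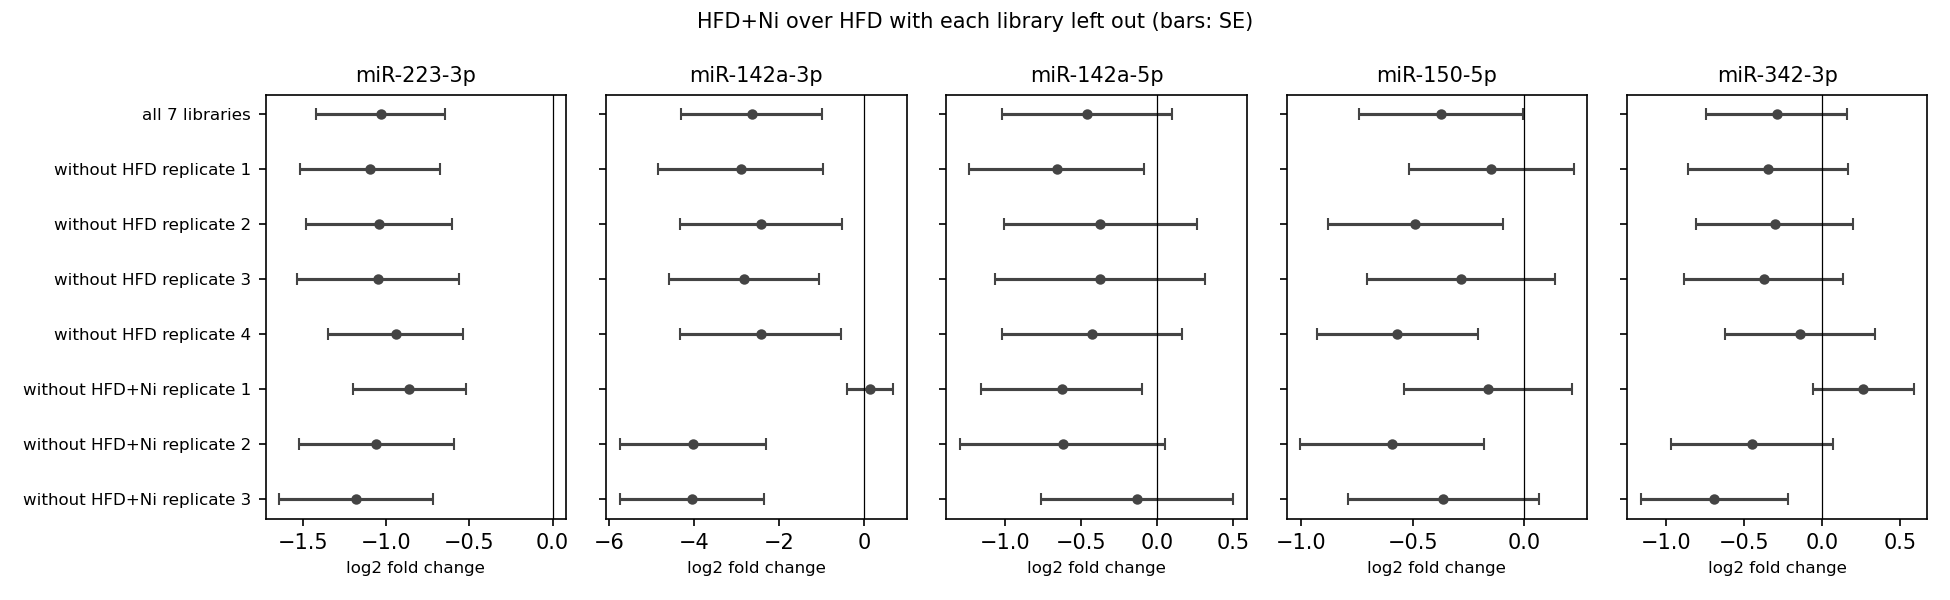
Log2 fold change (horizontal axes, on differing scales) of the 5 tested members with all 7 libraries and with each library left out, with SE bars from limma. miR-223-3p stays between -1.18 and -0.86, whereas miR-142a-3p and miR-342-3p move to 0.14 and 0.26 without HFD+Ni replicate 1.

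Whether miR-223-3p moved apart from the other members was tested on ratios within each library. Relative to miR-342-3p, its log2 ratio was -0.74, -0.72, -0.53 and -0.91 in HFD replicates 1 to 4 and -0.70, -1.73 and -1.97 in HFD+Ni replicates 1 to 3. HFD held to a narrow range, and HFD+Ni replicate 1 was inside it while the other two lay below. The difference between the group means was -0.74 (exact permutation p = 0.229, adjusted p = 0.571). Relative to miR-150-5p the ratio averaged -1.59 ± 0.75 for HFD (SD, n = 4) against -2.24 ± 0.36 for HFD+Ni (SD, n = 3), with the same exact permutation p of 0.229 (adjusted 0.571). Relative to miR-142a-5p it was 1.66 ± 0.35 and 1.09 ± 0.85 (exact permutation p = 0.286, adjusted 0.571). Against miR-142a-3p the difference was 1.61 with all libraries (exact permutation p = 0.857) and -1.004 without HFD+Ni replicate 1, and against miR-223-5p it was 0.40 (exact permutation p = 0.800), a ratio set by the pseudocount in the 5 libraries with no read of that arm. The smallest p that 4 against 3 libraries can give is 0.0571, so these tests could not reach 0.05, and a separate behaviour of miR-223-3p was not shown.

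**Figure D4:**
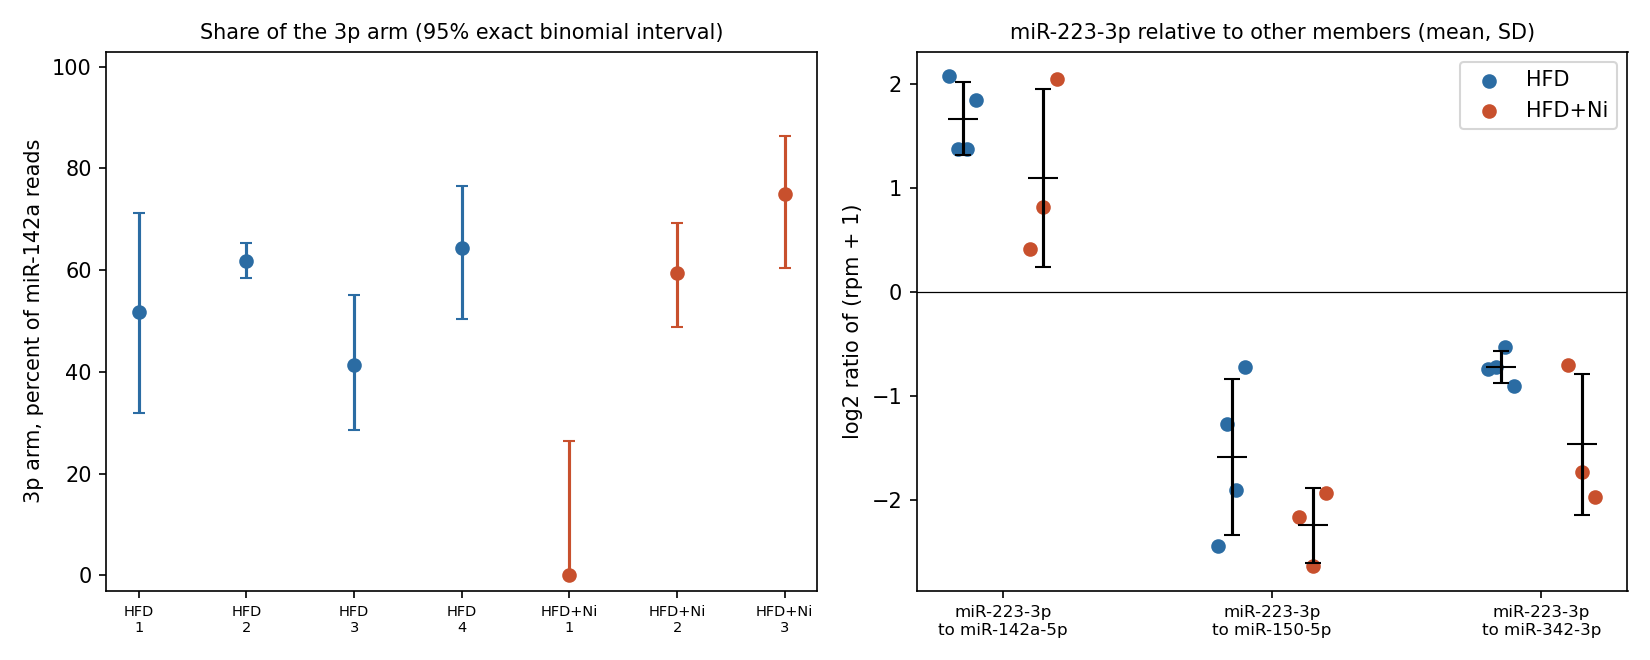
Left, percent of miR-142a reads on the 3p arm in each library with 95% exact binomial intervals; right, log2 ratio of miR-223-3p to 3 other members in HFD (blue) and HFD+Ni (red), with mean and SD. The 3p share is 0% in HFD+Ni replicate 1 and 41.4 to 75.0% elsewhere, and the groups overlap in each ratio.

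Other miRNAs of leukocytes and macrophages gave a similar count of directions. Of the 11 on the list all were in the table and 7 were tested. Their median log2 fold change was -0.59, and limma called 0 after adjustment. Of the 7, 5 lay below 0 and 2 above, where 183 of all 387 tested miRNAs lay below 0 (47.3%). Before adjustment 1 of the 7 had a p under 0.05 in limma, against 11 of 387 tested miRNAs (2.84%). It was miR-21a-5p, induced in activated macrophages and fibroblasts alike. Its mean was 11900 ± 3955 rpm for HFD (SD, n = 4) against 7637 ± 1008 rpm for HFD+Ni (SD, n = 3). miR-146a-5p, a brake on NF-kB signalling, had a log2 fold change of -0.74 (SE 0.35, adjusted p = 0.830 in limma). The T and B cell miRNA miR-181a-5p lay the other way, at 556 ± 186 and 755 ± 438 rpm, with a log2 fold change of 0.28 (SE 0.53), and miR-146b-5p was at 615 ± 236 and 541 ± 46.2 rpm. The macrophage miRNAs miR-511-3p and miR-511-5p, made from within the mannose receptor gene Mrc1 and named here after their values were seen, each had a mean of 0.473 rpm in HFD and 0 in HFD+Ni and were not tested.

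Summed levels of miRNAs of other cell types were also compared between the groups, and their part in the difference of miR-223-3p was not tested. The 2 endothelial arms of miR-126a summed to 20518 to 32381 rpm in HFD and 12979 to 18852 rpm in HFD+Ni, and the 8 testis and epididymis miRNAs to 599 to 1077 rpm and 1200 to 2341 rpm. The summed levels of these lists were separate between the groups, with and without HFD+Ni replicate 1. Taken singly with all libraries, 0 of the 2 endothelial arms and 3 of the 7 tested testis and epididymis miRNAs were separate. Over all tested miRNAs it was 20 of 387 (5.17%). The 3 were miR-34b-5p, miR-34c-5p and miR-449a-5p, the last only by 37.12 rpm in HFD replicate 1 against 37.3 rpm in HFD+Ni replicate 1. miR-34b-5p and miR-34c-5p averaged 187 and 607 rpm in HFD, where the list summed to a mean of 814 rpm. miR-741-3p, miR-470-5p, miR-871-3p and miR-880-3p had no read in HFD+Ni replicate 2. The 5 striated muscle miRNAs in the table ranged from 866 to 4301 rpm in HFD and from 762 to 1156 rpm in HFD+Ni, the 4 smooth muscle and stromal ones from 19266 to 61061 and from 16493 to 33643 rpm, and the 7 adipocyte ones from 22397 to 35197 and from 18461 to 28921 rpm. The adipocyte list holds miR-103-3p and miR-107-3p, whose mean levels were nearly the same. They averaged 9499.7 and 9498.8 rpm in HFD, and 7748 and 7745 rpm in HFD+Ni. Reads given to both names would enter the adipocyte sums and counts under each name, and this was not tested. The 4 erythroid miRNAs in the table, a sign of blood in the tissue, summed to 196 to 1273 rpm in HFD and to 0, 489 and 1031 rpm in HFD+Ni replicates 1 to 3, so blood miRNAs overlapped between the groups. Median log2 fold changes were -0.73 for the endothelial, -1.94 for the striated muscle, -0.32 for the erythroid, -0.15 for the smooth muscle and stromal, -0.30 for the adipocyte, 0.70 for the epithelial and 2.45 for the testis and epididymis list. Tested members lay lower in 2 of 2, 4 of 4, 2 of 3, 2 of 4, 5 of 6, 0 of 6 and 0 of 7 cases in that order, and limma called 0 of them at adjusted p under 0.05. Over all tested miRNAs 183 of 387 lay lower (47.3%), and 0 were called. Without HFD+Ni replicate 1, a comparison chosen after the data were seen, 3 of these medians changed sign. The epithelial median was then -0.22 with 5 of 6 lower, at sums of 6311 to 6820 rpm in HFD+Ni that lay within the HFD range. The erythroid median was 2.07 with 0 of 3 lower, and the adipocyte median 0.059 with 2 of 6 lower. Over all tested miRNAs 155 of 388 lay lower without that library.

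The miRNAs whose pattern was most like that of each member were sought among the 156 that averaged 100 rpm or more, by the SD over the 7 libraries of the log2 ratio of the pair (a small SD means a constant ratio). For miR-342-3p the nearest was miR-378a-3p, which is on the adipocyte list and is made from an intron of the metabolic regulator gene Ppargc1b. miR-378a-3p was at 2821, 2790, 2486 and 3233 rpm in HFD and at 1119, 2848 and 3967 rpm in HFD+Ni, which is 1.84 to 2.48 times miR-342-3p in every library. The SD of the log2 ratio was 0.13, below the 0.18 that counting error alone gives, against a median of 0.87 over the 155 other miRNAs. miR-378c and miR-378d followed at 0.15 and 0.17. In HFD replicates 1 to 4 miR-378c had 228, 2940, 292 and 241 reads, against 228, 2946, 292 and 249 of miR-378a-3p. In HFD+Ni replicates 1 to 3 it had 60, 498 and 427, against 60, 501 and 427. With nearly the same reads, miR-378c is not a separate match. How reads were assigned among miR-378a-3p, miR-378c and miR-378d was not tested. The lymphocyte miR-150-5p stood at place 65 of 155 in nearness to miR-342-3p, with an SD of 0.74.

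For miR-223-3p the nearest patterns were the endothelial miR-126a-3p (SD 0.33), miR-146a-5p (0.37) and miR-322-5p (0.42), against a median of 0.83. miR-126a-3p was at 19192, 19864, 17691 and 30589 rpm in HFD and 11935, 16510 and 17950 rpm in HFD+Ni. HFD replicate 4 was highest and HFD+Ni replicate 1 lowest in both miRNAs. The level of miR-126a-3p was 23.6 to 42.1 times that of miR-223-3p, so the ratio was not constant. It was higher in each HFD+Ni library than in any HFD library, a difference that was not tested. Counting error alone gives an SD of 0.21 for this pair. Among the other members miR-342-3p came closest to miR-223-3p, at place 21 of 155 (SD 0.57). miR-150-5p was nearest to let-7d-5p (SD 0.32), miR-339-5p (0.32) and miR-125a-5p (0.37), and miR-142a-5p to miR-361-3p (0.29), miR-361-5p (0.31) and miR-322-5p (0.38). For the pairs of miR-142a-5p counting error alone gives 0.51, 0.42 and 0.39, so which miRNA is nearest to it is not resolved at these depths. The 3 nearest to miR-142a-3p were the erythroid miR-486b-5p (SD 0.63), miR-15a-5p (0.80) and miR-139-5p (0.83), and like it all 3 had 0 reads in HFD+Ni replicate 1. No member had another member among its 3 nearest. These SDs describe 7 libraries that also differ in depth, and the closest of 155 was chosen in each case.

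**Figure D5:**
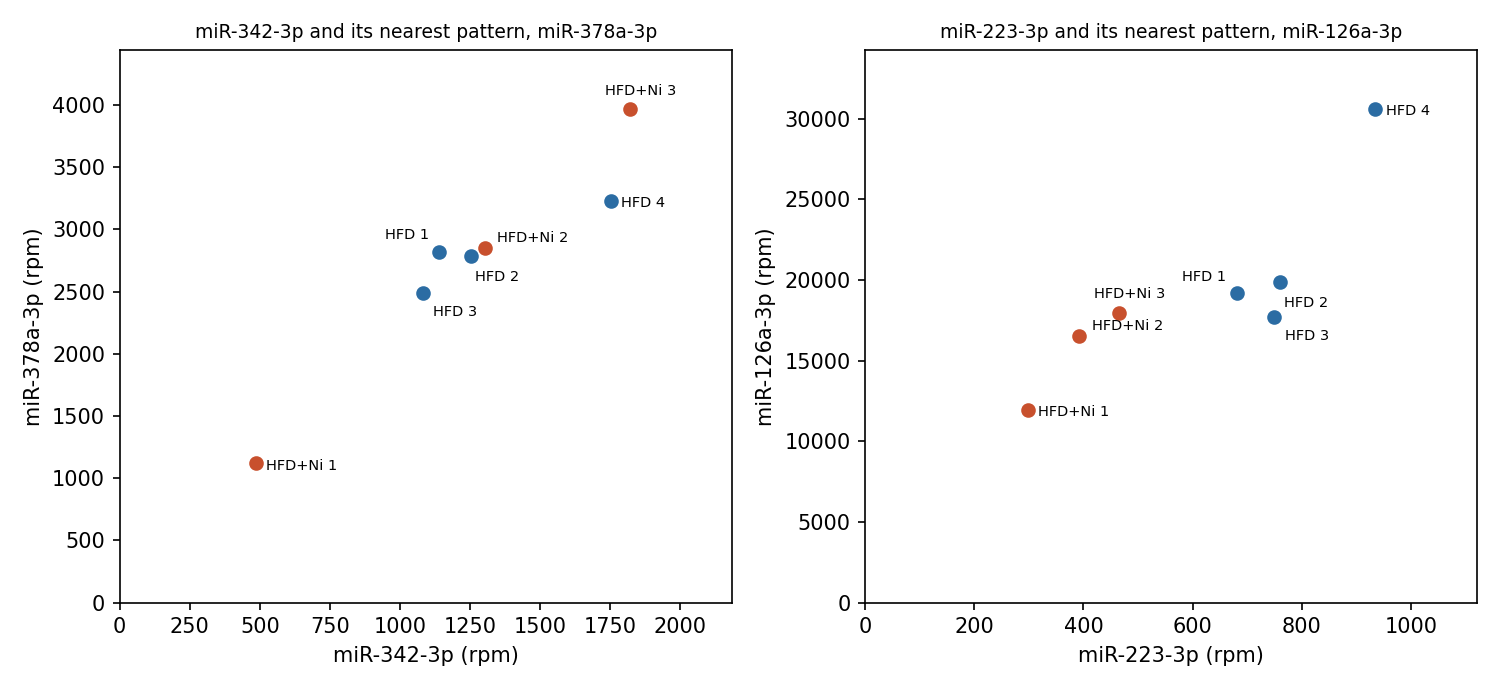
Level in rpm of miR-342-3p against miR-378a-3p (left) and of miR-223-3p against miR-126a-3p (right), 1 point per library, HFD in blue and HFD+Ni in red, linear axes from 0. On the left the points run in a line at a ratio of 1.84 to 2.48. On the right the HFD+Ni libraries lie at lower miR-223-3p, while the groups overlap in miR-126a-3p.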

How the data were processed

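Small RNA reads of 7 vesicle libraries had been counted and scaled by the authors. The deposited values, named TPM in the file, are RPM (reads per 1000000 miRNA reads) and sum to 1000000 in each library, and 100% of them were whole reads within 0.1 read once divided by the library's step. The submitters' processing notes name GRCm38, mm10 and edgeR, with no version. Aligner and counter: not given in the sources used here. Deposited beside these values were the authors' own p-value, FDR and log2 fold change. Their list of changed miRNAs holds no column for HFD replicate 2, and its 1 per-sample column matching no label was not used.

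The groups were tested with limma 3.58.1 in R 4.3.3, two-sided, using log2(rpm + 1) values and a mean-variance trend. Of the 820 miRNAs, 387 averaged 5 rpm or more and entered the fit, and Benjamini-Hochberg adjusted p under 0.05 was the threshold. edgeR 4.0.16 and DESeq2 1.42.0 on recovered reads, other pseudocounts, filters, TMM scaling, thinning, library weights and left-out libraries were alternatives, and the filter was reapplied to the libraries used. Ratios were tested by exact permutation. The fits were also run on simulated data with the same spread for every miRNA and no library set apart, a simpler setting than these data. The named miRNAs are the members, their partner arms, up to 4 abundant miRNAs of each list and the 3 nearest patterns. Members and lists were chosen with earlier results of these data known. Intervals and floors of 3 reads are at the 95% level and cover counting error only, since PCR copies are not independent. Precursor positions are from GENCODE M21.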

Additional observations from a re-analysis of the deposited data

Results flagged for a closer look

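In the HFD group of 4, 2 of 15 values had a library far from the other 3, and chance flags about 1 in 20 groups. HFD replicate 1 was at 49.5 rpm of miR-150-3p on 4 reads, with 0 to 1.89 rpm in the other HFD libraries, and it was also the library with the highest miR-150-5p. HFD replicate 2 was at 2.84 rpm of miR-342-5p on 3 reads, with 0 in the other 3, and it is the deepest library. At 1 read the other HFD libraries would show between 8.51 and 12.98 rpm.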

How the results depend on the processing

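Over the 18 alternative settings miR-223-3p, miR-142a-5p and miR-150-5p kept a log2 fold change below 0, and no member was called (adjusted p from 0.515 to 0.990). With 1 library left out miR-142a-5p ranged from -0.66 to -0.13 and miR-150-5p from -0.59 to -0.15. miR-223-3p ranged from -1.13 to -0.82 over the 11 settings with other than 1 library left out, and its unadjusted p was under 0.05 in 14 of 18. miR-142a-3p changed sign when HFD replicate 2 was left out with HFD+Ni replicate 1 (0.37) and ranged from -4.05 to 0.14 with 1 library left out; its unadjusted p was under 0.05 in 3 of 18. miR-342-3p did so with library weights (0.16) and without those 2 libraries (0.25), and ranged from -0.69 to 0.26. Of the ratios, miR-223-3p to miR-223-5p was -0.62 at a pseudocount of 10 rpm and ranged from -0.30 to 0.87 with 1 library left out. miR-142a-3p to miR-142a-5p was 0.91 and miR-223-3p to miR-142a-3p was -1.24 without the 2 libraries, and they ranged from -3.92 to 0.77 and from -1.004 to 2.97 with 1 left out. Without HFD+Ni replicate 1 the medians of the epithelial (-0.22), erythroid (2.07) and adipocyte (0.059) lists changed sign, an alternative chosen after seeing the data. The zero of miR-142a-3p in HFD+Ni replicate 1 enters the values of that arm, and for the rest the cause was not tested. DESeq2 called 1 miRNA of the whole table, no member, against 0 in limma, and unadjusted p under 0.05 took 6 to 29 miRNAs over the settings. Same-numbered libraries deviated with correlations of 0.02, 0.19 and -0.10 across 387 miRNAs, and differently numbered ones with correlations from -0.149 to 0.105. So few correlations cannot decide whether the numbers pair libraries, and the labels do not say so. With the replicate block, which takes nothing from the unpaired HFD replicate 4, miR-223-3p was at -0.94, miR-142a-3p at -2.43, miR-142a-5p at -0.43, miR-150-5p at -0.57 and miR-342-3p at -0.14, with 0 miRNAs called. Depth limits miR-223-5p and the partner arms, read at most 4 times in a library.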
